A study of Mus musculus with 6 samples.

Results

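A set of 38 genes of the interferon response and of antigen presentation was followed in the livers of mice with a liver-selective knockout of estrogen receptor alpha (ERα, gene Esr1) and of their controls. The members were listed by symbol, and each was measured by the probe set that the array's annotation pairs with this gene alone, or, for several such probe sets, by the one with the highest mean over the 6 arrays. Such a probe set was found for 34 of the 38 members, of 18820 genes measured in this way in the series. Ifi44, Parp9, Ifi47 and Igtp had none, so their expression was not analysed here. Liver RNA came from 3 CT and 3 LERKO mice, all female and of the C57BL/6J background, and each mouse had its own array (Affymetrix Mouse Gene 1.1 ST). The CT genotype was ERα fl/fl without cre. LERKO mice had the same floxed alleles together with Alb-cre, a transgene in which the albumin promoter, active in hepatocytes, drives cre recombinase. ERα in the other cells of the liver was not measured apart from that in hepatocytes. Effects of cre itself and of losing ERα cannot be told apart in this comparison. The age of the mice is not given in the labels. All values are log2 signals of the robust multichip average (RMA), and a signal of 100 lies at 6.64 on this scale.

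Interferons are secreted proteins that put cells into a state of defence against viruses and other microbes. Type I interferons act through transcription factors that include STAT2 and IRF9, which bind interferon-stimulated response elements (ISRE) in the promoters of their target genes. Interferon gamma acts through gamma-activated sites (GAS) in promoters, and it raises the genes of antigen presentation, the guanylate-binding and immunity-related GTPases and the chemokines that attract T cells. In liver, hepatocytes, Kupffer cells and endothelial cells all answer to interferons.

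Each array carried the Esr1 level of its label, with signals of 8.45, 8.78 and 8.29 in the CT mice and of 6.75, 7.06 and 6.77 in the LERKO mice (log2 fold change −1.65, standard error 0.15, adjusted p = 0.149 from limma). The hepatocyte markers Alb, Apoa1, Ttr, Cps1, Tat and Hnf4a lay between 11.90 and 13.73 in all arrays. CT replicate 3 held transcripts of the exocrine pancreas, with Ctrb1 at 9.08 and at most 3.55 elsewhere. LERKO replicate 2 held transcripts of the adrenal cortex, with Cyp21a1 at 11.67 and at most 4.05 elsewhere. Member results are therefore also given without these arrays.

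Sequences of the kind that interferon factors bind were found in the promoter windows of many members. The window from 250 bases before to 50 bases after each RefSeq gene start was available for 30 members, and it was searched on both strands for the ISRE core, 2 copies of GAAA with any 2 bases between them (TTTC on the other strand), and for the GAS core TTCNNNGAA, which reads alike on both strands. The ISRE core was found in 16 of the 30 members (53.3%), against 1079 of all 27025 genes with a window (3.99%). The GAS core was found in 8 of the 30 (26.7%), against 2582 of all genes (9.55%). Both cores were found in 4 members, Irf2, Bst2, Eif2ak2 and Igtp, and neither in 10. A match of these letters is a description and not a measured binding site. The stretches below are from genome build GRCm38.p6 and are written 5′ to 3′ on the strand of the gene. They show cores, in capitals, with the bases around them in members of different roles. Capitals mark ISRE cores, and in Irf1 and Irf8 GAS cores. The GAS cores of Bst2 and Igtp also lie within their stretches but are not marked. The likeness of the capitals was set by the search. The antiviral effectors Ifit1 and Ifit3 each hold 2 ISRE cores, in Bst2 and the GTPases Irgm1 and Gbp3 2 cores overlap, and the regulators Irf1 and Irf8 hold GAS cores.
Ifit1 (chr19:34640760-34640838, plus strand): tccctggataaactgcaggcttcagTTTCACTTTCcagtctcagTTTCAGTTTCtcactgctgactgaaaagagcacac
Ifit3 (chr19:34583348-34583441, plus strand): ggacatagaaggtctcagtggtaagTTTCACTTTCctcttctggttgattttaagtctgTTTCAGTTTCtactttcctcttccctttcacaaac
Rsad2 (chr12:26456538-26456597, minus strand): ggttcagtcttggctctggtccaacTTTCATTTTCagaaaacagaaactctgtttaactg
Bst2 (chr8:71537562-71537627, minus strand): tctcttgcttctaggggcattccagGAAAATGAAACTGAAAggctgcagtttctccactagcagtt
Irgm1 (chr11:48871421-48871475, minus strand): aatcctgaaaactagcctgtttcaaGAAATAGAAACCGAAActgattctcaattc
Gbp2 (chr3:142620579-142620638, plus strand): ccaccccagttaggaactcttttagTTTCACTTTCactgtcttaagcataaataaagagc
Gbp3 (chr3:142559974-142560039, plus strand): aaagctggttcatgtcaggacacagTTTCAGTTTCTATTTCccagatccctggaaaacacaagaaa
Igtp (chr11:58199497-58199555, plus strand): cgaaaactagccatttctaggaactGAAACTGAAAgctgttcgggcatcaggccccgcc
B2m (chr2:122147523-122147582, plus strand): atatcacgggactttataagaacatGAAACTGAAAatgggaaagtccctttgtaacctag
Cxcl10 (chr5:92349068-92349127, minus strand): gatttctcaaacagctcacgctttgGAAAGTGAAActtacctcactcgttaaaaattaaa
Irf1 (chr11:53769899-53769957, plus strand): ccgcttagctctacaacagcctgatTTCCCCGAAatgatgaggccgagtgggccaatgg
Irf8 (chr8:120736162-120736238, plus strand): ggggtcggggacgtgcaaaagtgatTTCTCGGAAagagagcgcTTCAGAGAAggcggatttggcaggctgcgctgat

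Of the 34 members measured, 27 reached a signal of 100 in at least 1 array and were tested, and 21 reached it in all 6 arrays. At an adjusted p under 0.05 from limma, 0 of the 27 tested members differed between LERKO and CT liver, as did 0% of the 10633 probe sets tested. At an unadjusted p under 0.05, the count was also 0 of 27, beside 6.98% of all probe sets. The levels were lower on average in LERKO liver for 22 members (81.5%) and higher for 5, Irf3, Stat2, Ifit1, Ifit3 and B2m, while 53.5% of all probe sets tested were lower. The median log2 fold change of the 27 members was −0.10, beside −0.0099 over all probe sets tested. Over the 34 members measured, without a signal filter, 26 were lower (76.5%, beside 49.0% of all deposited probe sets) and the median was −0.089. Because the members vary together from mouse to mouse, as described below, they do not count as independent observations of a direction. The share of lower members depended on which CT array was left out. Without CT replicate 1, 14 of 26 members were lower (53.8%, beside 50.7% of all probe sets) and the median was −0.014. Without CT replicate 3, 24 of 27 were lower (88.9%, beside 57.5%) and the median was −0.19.

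**Figure D1:**
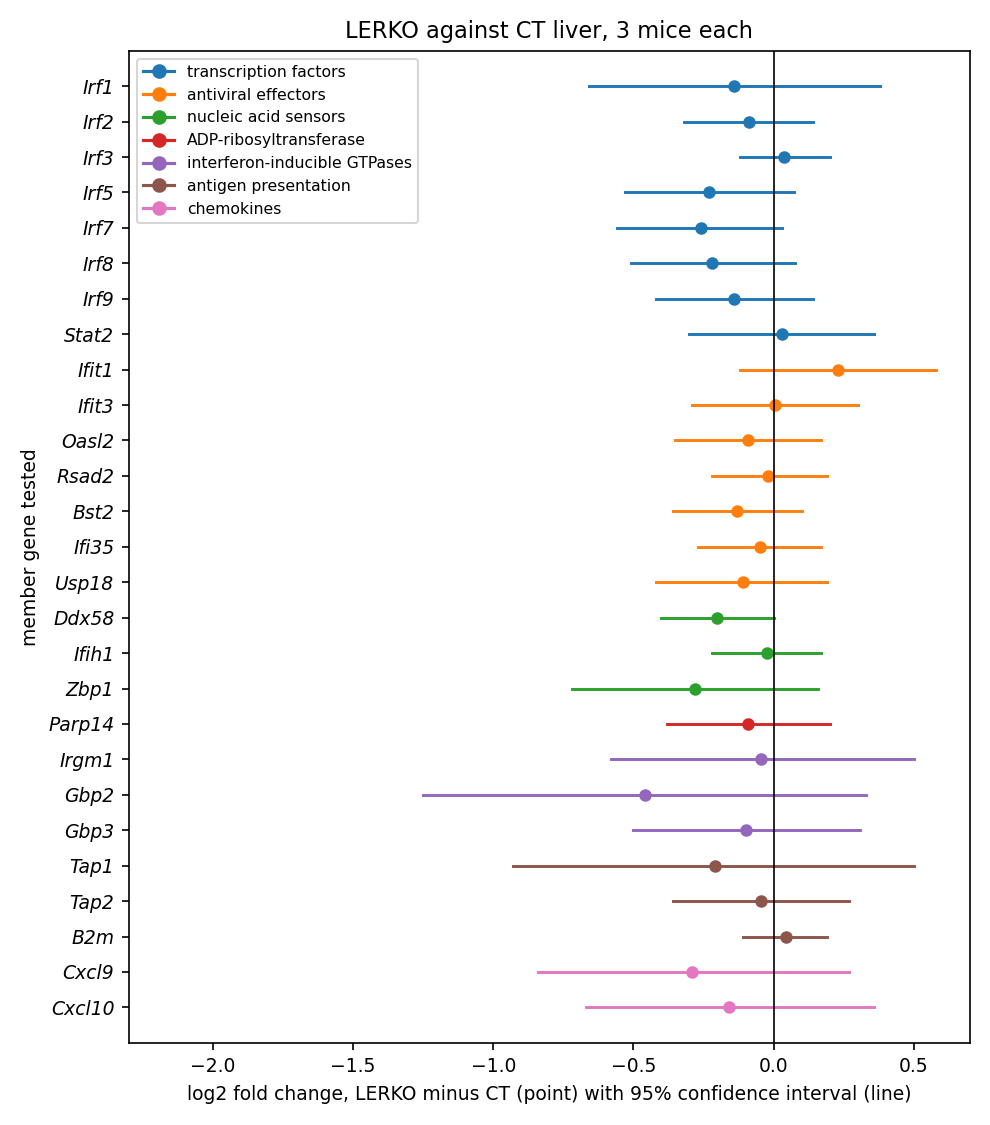
Difference of the LERKO from the CT mean for each of the 27 members tested (horizontal axis, log2 fold change), with 95% confidence intervals from limma, coloured by the role of the gene. All intervals include 0, and 22 points lie below it.

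The size of the changes that remain possible differed between members. The 95% confidence interval from limma lay within 2-fold in either direction for 26 of the 27 members and within 1.5-fold for 21. Over all probe sets these shares were 96.1% and 85.3%. The member whose interval reached past 2-fold was Gbp2, a guanylate-binding protein, with −1.25 to 0.33 on the log2 scale. The interval of B2m, the light chain of class I molecules of the major histocompatibility complex (MHC), was among the narrow ones, with −0.11 to 0.19. With 3 mice in each group, differences that lie within the interval of a member remain possible for it.

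Among the regulators of the response, the interferon regulatory factors (IRF) and Stat2, 6 of 8 had lower and 2 higher means in LERKO liver, with log2 fold changes from −0.26 to 0.039 and a median of −0.14. Irf7, which amplifies the production of type I interferons, had signals of 8.96, 8.61 and 9.02 in the CT mice and of 8.56, 8.71 and 8.53 in the LERKO mice. CT replicate 2 lay within the LERKO range, and the other CT mice lay above it (log2 fold change −0.26, standard error 0.12, adjusted p = 0.709 from limma). Without CT replicate 2 the log2 fold change of Irf7 was −0.39 (adjusted p = 0.775 from limma). Irf1, a target and mediator of interferon gamma, had 8.47, 8.01 and 7.59 in CT and 7.73, 7.99 and 7.93 in LERKO liver. The CT mice thus spread over 0.88 and enclosed all LERKO mice, which spread over 0.26. A further probe set of Irf1 lay between 3.91 and 4.79 and was not used. Irf8, a factor of macrophages and dendritic cells, had 6.83, 6.96 and 6.61 in CT and 6.48, 6.77 and 6.51 in LERKO liver, and it reached a signal of 100 in 3 of the 6 arrays. Irf5, which acts downstream of Toll-like receptors, had 6.70, 7.03 and 6.67 in CT and 6.72, 6.42 and 6.56 in LERKO liver. The groups overlapped in both genes, with log2 fold changes of −0.23 for Irf5 and −0.22 for Irf8. The remaining regulators lay closer together. Irf9 and Stat2, which act together at the ISRE, had log2 fold changes of −0.14 and 0.03. Irf2, which competes with Irf1 for its sites, had −0.088, and Irf3, the factor that starts interferon production after virus is sensed, had 0.039, with all 6 mice between 7.82 and 7.91.

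The antiviral effectors showed small differences on both sides of 0. Of 12 measured, 7 were tested, of which 5 had lower and 2 higher means, with log2 fold changes from −0.13 to 0.23 and a median of −0.049. Ifit1, which binds viral RNA, was the member with the largest positive value, with signals of 7.04, 7.36 and 6.96 in CT and of 7.19, 7.27 and 7.58 in LERKO liver. LERKO replicate 3 lay above all CT mice, and CT replicate 2 lay above LERKO replicates 1 and 2 (log2 fold change 0.23, standard error 0.15, adjusted p = 0.776 from limma). Its neighbour Ifit3, of the same family, had 7.47, 7.57 and 7.33 in CT and 7.30, 7.69 and 7.40 in LERKO liver, a log2 fold change of 0.0062. Probes of Ifit3 may also read its close copy Ifit3b, so this value is uncertain. Usp18, the protease that removes ISG15 from proteins and restrains the interferon receptor, had a log2 fold change of −0.11, and Bst2, also called tetherin, had −0.13. Oasl2, of the family that senses viral RNA, had −0.091, Ifi35 −0.049 and Rsad2, also called viperin, −0.018. The other effectors measured, Ifit2, Isg15, Oas2, Mx2 and Xaf1, lay below a signal of 100 in all arrays, and their groups overlapped. Among them Oas2 had 5.45, 6.00 and 5.02 in CT and 5.59, 5.23 and 5.63 in LERKO liver. Isg15, the ubiquitin-like modifier, lay between 3.51 and 3.80.

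The 3 tested sensors of foreign nucleic acid, Ddx58, Ifih1 and Zbp1, had lower means in LERKO liver, and Ddx58 had the smallest p of all members. Ddx58 encodes RIG-I, a cytosolic sensor of viral RNA, and had signals of 8.45, 8.61 and 8.39 in CT and of 8.22, 8.33 and 8.30 in LERKO liver. Each LERKO mouse had a lower signal than every CT mouse (log2 fold change −0.20, standard error 0.083, 95% confidence interval −0.40 to 0.0015, 1.15-fold lower). The limma p was 0.0513 before and 0.703 after adjustment, and the exact two-sided permutation test gave p = 0.10, the smallest that 3 mice against 3 allow. It was the only one of the 27 members tested whose groups did not overlap (3.70%), beside 13.0% of all probe sets. Ifih1, which encodes the related sensor MDA5, had a log2 fold change of −0.022, with all 6 mice between 8.40 and 8.61. Zbp1, a sensor of nucleic acids in the Z form, had 7.42, 7.24 and 6.71 in CT and 6.80, 6.96 and 6.77 in LERKO liver. CT replicates 1 and 2 lay above all LERKO mice and CT replicate 3 below them (log2 fold change −0.28, standard error 0.18, adjusted p = 0.782 from limma). Dhx58, the regulator of both RNA sensors, and Eif2ak2, the kinase that stops translation when viral RNA is present, lay below a signal of 100 in all arrays. Dhx58 ranged from 6.11 to 6.37 and Eif2ak2 from 5.88 to 6.18, with groups that overlapped. Unlike the tested sensors, both had higher means in LERKO liver, by 0.034 and 0.068. Parp14, an ADP-ribosyltransferase of macrophage activation, had a log2 fold change of −0.09.

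The GTPases, the transporters of antigen presentation and the chemokines, which interferon gamma raises, varied more among the CT mice than their group means differed. The spread of the CT mice was also larger than the difference of the means in the other members tested. Lower means in LERKO liver were found for 3 of 3 GTPases, 2 of 3 genes of antigen presentation and 2 of 2 chemokines. Gbp3 is counted here although it was kept only through CT replicate 1. Tap1, a subunit of the transporter that brings peptides to class I molecules, had signals of 8.47, 7.77 and 7.21 in CT and of 7.59, 7.76 and 7.45 in LERKO liver. The CT mice spread over 1.27, and the LERKO mice over 0.31 (log2 fold change −0.21, standard error 0.30, adjusted p = 0.887 from limma). The log2 fold change ranged from −0.52 without CT replicate 3 to 0.11 without CT replicate 1. Irgm1, a GTPase that acts against bacteria inside cells, had 9.27, 8.65 and 8.32 in CT and 8.72, 8.72 and 8.69 in LERKO liver. The 3 LERKO mice lay within 0.033 of each other and inside the CT range of 0.95. The log2 fold change of Irgm1 was −0.044, and −0.26 and 0.22 without CT replicates 3 and 1.

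Gbp2 had 6.99, 6.99 and 6.16 in CT and 5.65, 6.70 and 6.41 in LERKO liver, the largest difference of any member (log2 fold change −0.46, standard error 0.33, adjusted p = 0.796 from limma). LERKO replicate 1 lay below all other mice, and without it the log2 fold change was −0.16. Gbp2 reached a signal of 100 in 3 arrays, and Gbp3 only in CT replicate 1, at 6.96. With a signal of 100 asked in at least 3 arrays, which left out Gbp3, 21 of 26 members were lower (80.8%). Tap2, the partner of Tap1, had a log2 fold change of −0.044. B2m had 12.87, 12.88 and 12.82 in CT and 12.93, 12.90 and 12.87 in LERKO liver (log2 fold change 0.043).

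Cxcl9 and Cxcl10, chemokines that attract T cells through the receptor CXCR3, had log2 fold changes of −0.29 and −0.16 (standard errors 0.23 and 0.22, adjusted p = 0.811 and 0.884 from limma). Cxcl9 had 10.10, 10.12 and 9.45 in CT and 9.23, 9.77 and 9.80 in LERKO liver. Cxcl10 had 7.73, 7.38 and 7.03 in CT and 6.91, 7.51 and 7.26 in LERKO liver. For both chemokines LERKO replicate 1 was the lowest mouse, and CT replicate 3 lay below the other LERKO mice.

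**Figure D2:**
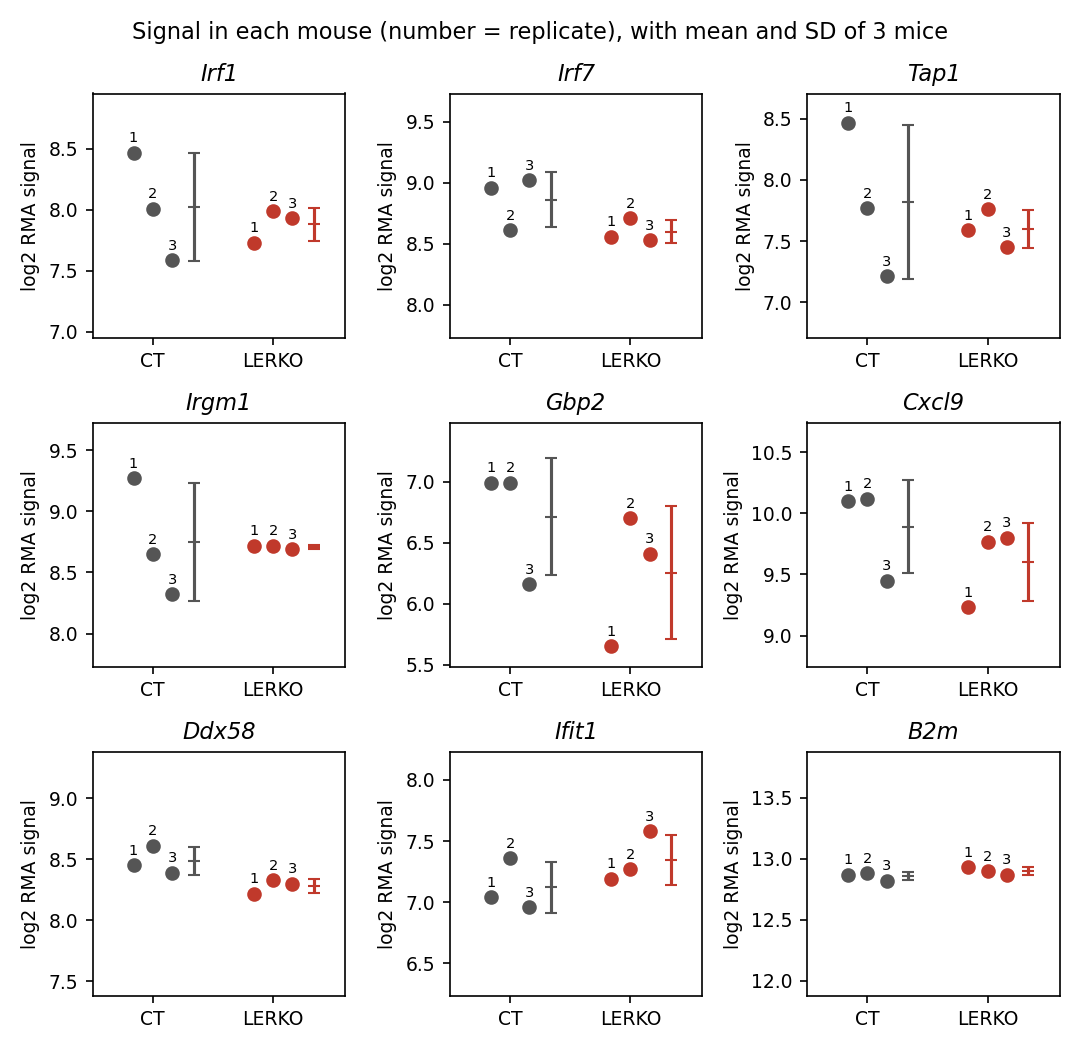
RMA signal (log2, each vertical axis covers 2 units) of 9 members, 1 point per mouse with its replicate number, and the mean and SD of the 3 CT (grey) and 3 LERKO (red) mice. In Irf1, Tap1 and Irgm1 the CT mice reach above and below all LERKO mice, while in Ddx58 the groups do not overlap.

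Within the groups, the members spread more widely at the median than all probe sets tested. The CT range, from the lowest to the highest of 3 mice, was larger than the LERKO range in 23 of the 27 members tested (85.2%), while this was the case for 60.5% of all probe sets tested. The 27 include Gbp3, kept only through CT replicate 1. Without a signal filter the CT range was larger in 27 of the 34 members measured (79.4%). No share over all deposited probe sets was computed for this count. The median range of the 27 members was 0.36 among CT and 0.26 among LERKO mice, beside 0.23 and 0.19 over all probe sets tested. CT replicates 1 and 2 each held the highest value of the 6 mice in 11 of the 27 members (40.7%), against 18.2% and 28.3% of all probe sets tested. CT replicate 3 and LERKO replicate 1 were each the lowest mouse in 11 (40.7%, beside 24.4% and 20.8%). The mean deviation of the 34 members from the mean of the 6 mice was 0.16, 0.13 and −0.15 in the CT mice and −0.12, 0.021 and −0.045 in the LERKO mice on the log2 scale. The LERKO mice thus lay inside the range of the CT mice. The mean of the 3 CT mice was 0.047 ± 0.17 (SD, n = 3), and that of the 3 LERKO mice was −0.048 ± 0.071 (SD, n = 3).

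**Figure D3:**
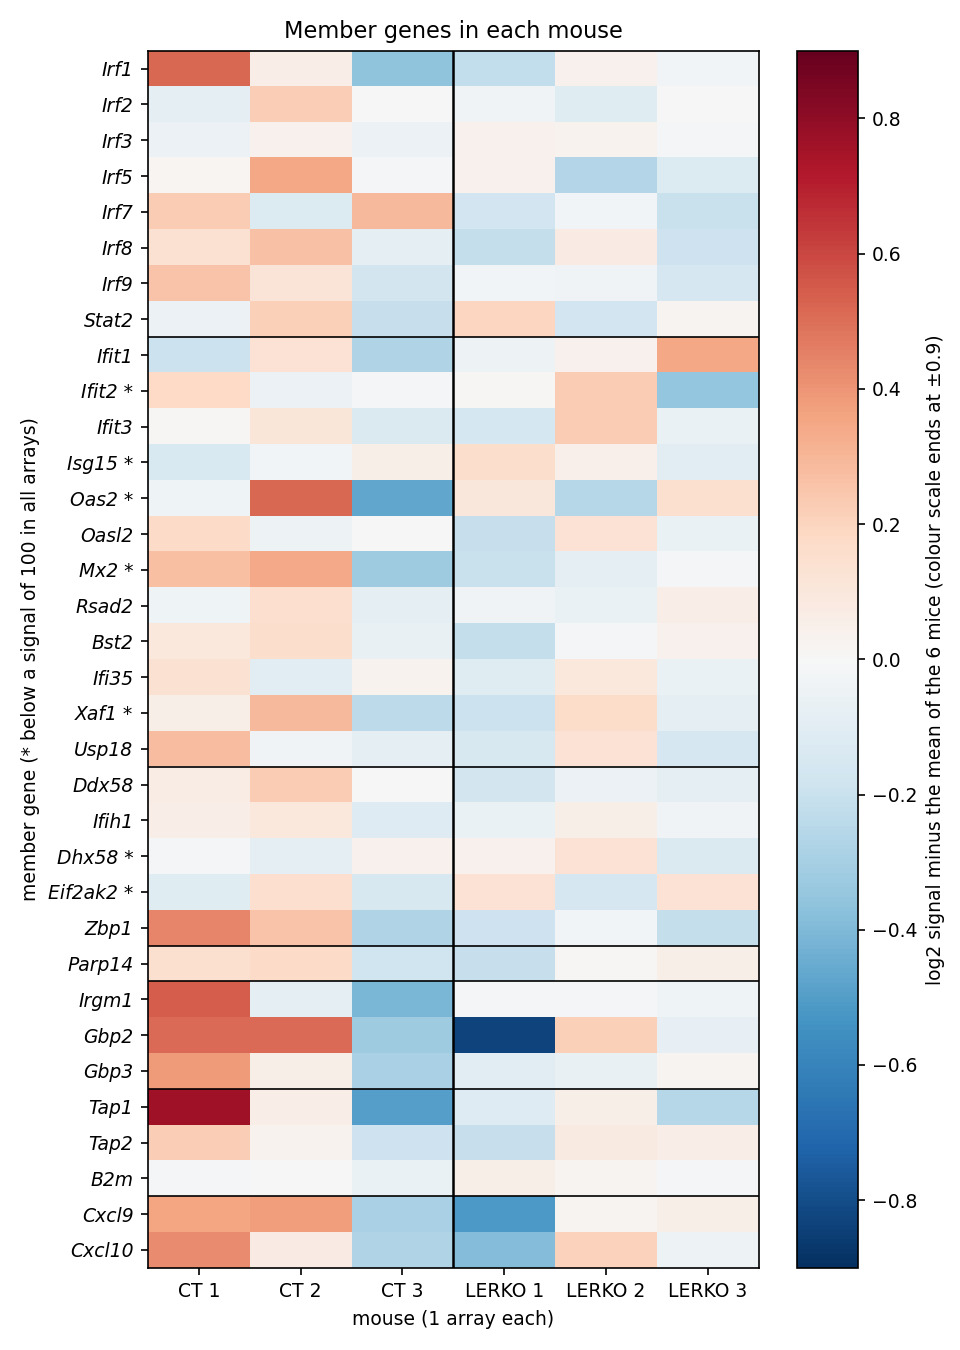
Log2 signal of the 34 measured members (rows, ordered by role) in each of the 6 mice (columns), as the difference from the mean of the 6 mice, where red is higher and blue lower. CT replicate 1 is high for Irf1, Zbp1, the GTPases, Tap1 and the chemokines, CT replicate 3 is low for the same genes, and Gbp2 and Cxcl9 are low in LERKO replicate 1.

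**Figure D4:**
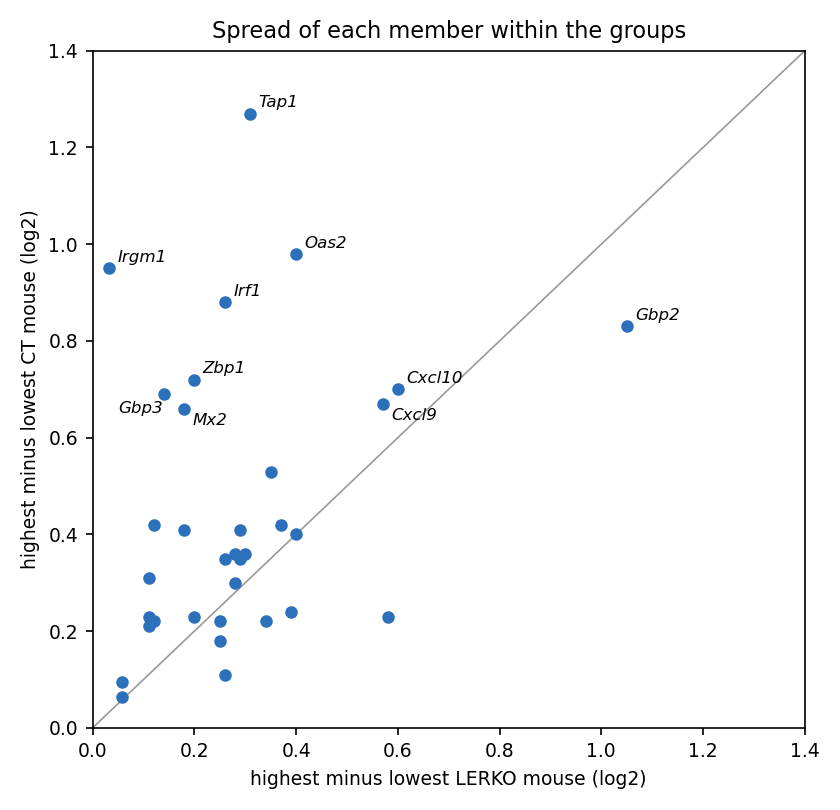
Range within the 3 CT mice (vertical axis) against the range within the 3 LERKO mice (horizontal axis) of the 34 measured members, in log2 units, with a line where the ranges are equal. Of the points, 27 lie above the line, from B2m near the origin to Tap1 at 1.27 among CT mice.

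The overlap of the groups also depended on whether CT replicate 3 was included. Without this array, which held pancreas transcripts, 24 of 27 members were lower in LERKO liver (88.9%, beside 57.5% of all probe sets), 12 had groups without overlap (44.4%, beside 29.2%) and 5 had an unadjusted p under 0.05 (18.5%, beside 11.2%). These 5 were Irf8, Irf9, Ddx58, Zbp1 and Cxcl9, with log2 fold changes from −0.51 to −0.25, and none passed after adjustment (smallest adjusted p = 0.317 from limma, for Zbp1). Without CT replicate 3 and LERKO replicate 2 together, the median log2 fold change of the members was −0.23 and 23 were lower (85.2%, beside 57.3%). Of these 27 members 17 had groups without overlap (63.0%, beside 44.1%), 7 had an unadjusted p under 0.05 (25.9%, beside 10.8%) and 0 passed after adjustment. Without CT replicate 1, 2 of 26 had no overlap (7.69%, beside 22.6%) and 0 an unadjusted p under 0.05 (beside 6.12%). Without CT replicate 2, 19 of 27 were lower (70.4%, beside 48.3%), 5 had no overlap (18.5%, beside 23.2%) and 2, Irf7 and Ifit1, had an unadjusted p under 0.05 (7.41%, beside 6.26%). Without 1 of the LERKO mice, 20 to 22 members were lower (74.1% to 81.5%, beside 50.9% to 55.4%) and 2 to 5 had no overlap (7.41% to 18.5%, beside 19.7% to 26.0%).

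The rest of the interferon and antigen presentation pathway was read from 114 further genes, of which 96 were measured and 55 tested. At an adjusted p under 0.05, 0 of the 55 differed, and 0 had an unadjusted p under 0.05 in limma (39 lower, 16 higher, median log2 fold change −0.089). Over all probe sets tested, 0% had an adjusted and 6.98% an unadjusted p under 0.05 from limma, and 53.5% were lower. Of 9 tested genes of interferon receptors and their signalling, 5 were lower and 4 higher. Ifngr1, a chain of the interferon gamma receptor, had 7.95, 8.02 and 8.10 in CT and 7.89, 7.87 and 7.57 in LERKO liver. Each LERKO mouse had a lower signal than every CT mouse (log2 fold change −0.25, standard error 0.11, adjusted p = 0.703 from limma). Ifngr2, its partner chain, had a log2 fold change of 0.10, and Ptpn2, a phosphatase that restrains the pathway, −0.20. Ptpn2 is counted as lower although it was kept only through CT replicate 2, at 6.68. Among 7 tested adaptors and kinases of virus sensing, 4 were lower and 3 higher, with a median of −0.0023. The 3 of smallest p from limma were Ikbke with −0.18, Traf6 with −0.10 and Ticam1 with −0.11.

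Of 44 other interferon-stimulated genes measured, 22 were tested, with 14 lower, 8 higher and a median of −0.057. Ifi205 is counted as lower although it was kept only through CT replicate 1, at 6.81. Isg20, an RNA exonuclease, had a log2 fold change of −0.23, Helz2 −0.13 and Sp100, a nuclear body protein, −0.44. The groups did not overlap in Isg20, Helz2 and Sp100, with adjusted p values of 0.709, 0.743 and 0.745 from limma. These 3 of 22 genes, and with Ifngr1 4 of all 55 further genes tested, stand beside the 13.0% of all probe sets without overlap. The genes of interferons and of the chemokine Cxcl11 that were measured, 7 in all, lay below a signal of 100 in every array, between 2.35 and 6.13.

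Other genes of class I presentation were lower in LERKO liver for 10 of 11 tested, beside 53.5% of all probe sets tested. Their median was −0.11, and the groups overlapped for all 11. Nlrc5, the transactivator of class I genes, had 9.18, 8.97 and 8.37 in CT and 8.55, 8.70 and 8.53 in LERKO liver. Tapbp, which loads peptides with Tap1, had a log2 fold change of −0.15, and Psme1, an activator of the proteasome, −0.16. Genes of class II presentation, which is a function of macrophages, dendritic cells and B cells, had lower means for 6 of 6 tested, with a median of −0.39. H2-Ab1, a chain of a class II molecule, had 9.60, 8.72 and 8.68 in CT and 8.38, 8.98 and 8.20 in LERKO liver. H2-DMa, which helps to load class II molecules, had 7.69, 7.22 and 7.16 in CT and 6.69, 7.29 and 6.75 in LERKO liver (log2 fold change −0.45, standard error 0.21, adjusted p = 0.709 from limma). H2-Eb1, another chain, had −0.42. In each of these 3 class II genes CT replicate 1 was the highest mouse and LERKO replicate 2 lay above CT replicates 2 and 3.

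CT replicate 1 stood above the other mice in the mean level of T and NK cell markers and of the genes of antigen presentation. It was the highest mouse for 10 of 12 other class I genes and for 7 of 8 class II genes measured, with mean deviations of 0.31 and 0.52. It was also the highest for 6 of 9 measured markers of T and NK cells, with a mean deviation of 0.36 beside −0.15 to −0.026 in the other mice. Nkg7, a gene of cytotoxic granules, was at 5.48 in CT replicate 1 and between 4.56 and 4.94 in the other 5 mice. Cd8a, which marks cytotoxic T cells, was at 4.81 in CT replicate 1 and between 3.64 and 3.90 in the other 5 mice. In the T cell markers Cd3d and Cd4, CT replicate 2 was the highest mouse, at 3.38 and 4.52 beside 3.20 and 4.46 in CT replicate 1. Cd3e was at 5.22 in CT replicate 1 and highest in CT replicate 3, at 5.23. The 9 markers lay below a signal of 100 in every array, between 2.98 and 5.48. The part of these cells in the levels of the members was not tested, and in whole liver more cells of a type and more RNA per cell cannot be told apart. Markers of Kupffer cells and macrophages did not show this order, with mean deviations of 0.14, −0.32 and 0.16 in the CT mice and of 0.054, 0.10 and −0.13 in the LERKO mice. They were lowest in CT replicate 2 for 8 of 9 markers, a mouse in which 15 of the 34 members measured were at their highest. The 6 markers of dendritic cells, all below a signal of 100, had mean deviations of 0.14, 0.19 and −0.076 in the CT mice and of −0.20, 0.02 and −0.07 in the LERKO mice, and 6 of 6 had lower means in LERKO liver. As for the members, CT replicates 1 and 2 were the highest mice on this list, and the part of dendritic cells in the levels of the members was not tested either. Hepatocyte markers deviated by −0.062 to 0.079.

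**Figure D5:**
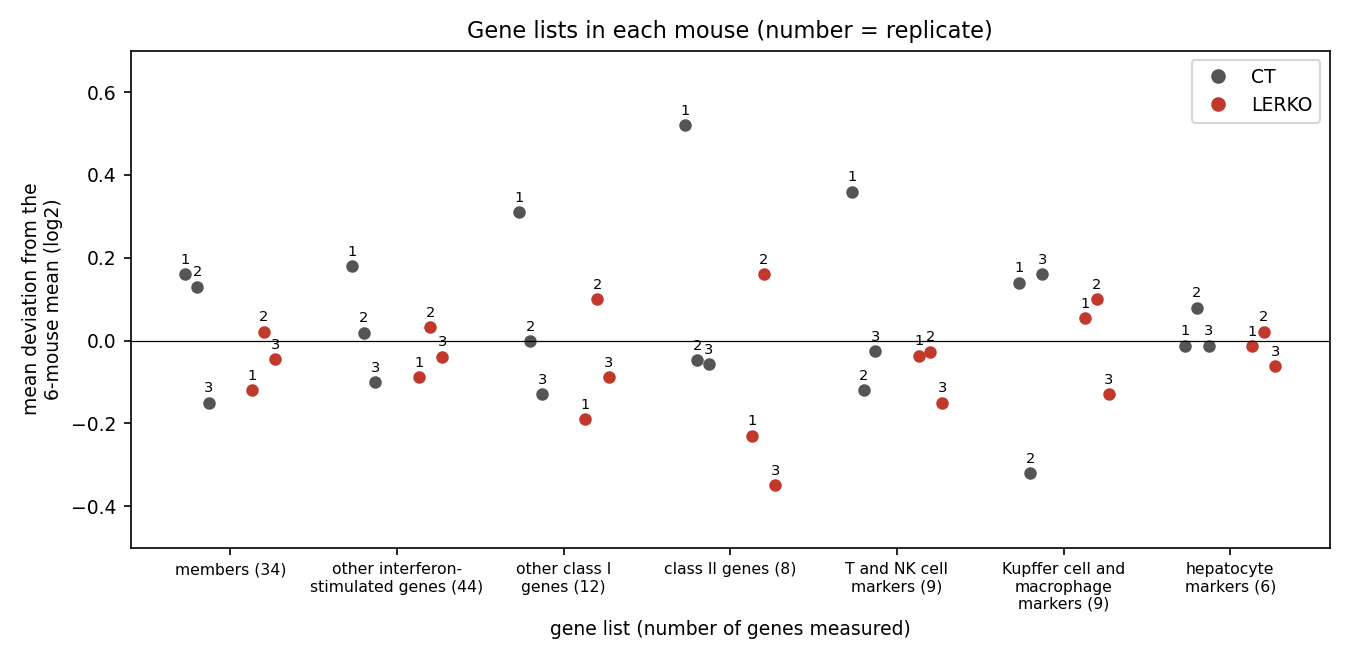
Mean deviation from the mean of the 6 mice (vertical axis, log2 units) over 7 gene lists, 1 point per mouse with its replicate number, CT in grey and LERKO in red. CT replicate 1 is the highest mouse for the members, the other interferon-stimulated genes, the class I and class II genes and the T and NK cell markers, but not for the Kupffer cell or hepatocyte markers.

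The members were also divided by the ISRE core in their promoter window. Of 13 tested members with the core 9 were lower in LERKO liver, with a median log2 fold change of −0.04 and values from −0.46 to 0.23. Of 10 tested members with a window but no core, 9 were lower, with a median of −0.17 and values from −0.29 to 0.04. The difference between these 2 sets of members was not tested.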

How the data were processed

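Arrays of the livers of 3 CT and 3 LERKO mice gave signals for 35556 probe sets. The authors had background-corrected, quantile-normalized and summarised the probes by RMA with the oligo package (version not given in the sources used here), so that the table they deposited holds log2 signals, without a signal filter.

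Gene names came from the array's annotation, with symbols updated by gene identifier. Members were read only from probe sets with 1 gene (21218 sets), not from those with several (1881) or none (12457). Following the methods of the study, a probe set was kept at a signal of 100 in at least 1 array, which left 10633, and between 9452 and 9865 of these reached it per array. LERKO was compared with CT by limma 3.58.1 in R 4.3.3 (lmFit and eBayes, two-sided, genotype as the only term), and p values were adjusted by Benjamini-Hochberg over the 10633 probe sets. Permutation tests over mice were exact. The model was tested on simulated data. The number of arrays limits the precision, and the median SD within a group was 0.123.

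The members and gene lists were chosen with earlier results of these data known. The genes named are the members, Esr1, up to 3 genes of smallest p in each further pathway list, Ifi205, Ifnk, and marker genes of other cells. The markers are given by count and with examples. Ifi205, Ifnk and these examples were chosen after their values were seen. Other filters, probe set choices, variance models, array weights and scalings, a replicate block and fits without 1 or 2 arrays were run as alternatives. The labels call the arrays of a group biological replicates. Promoter windows are those of RefSeq on GRCm38.p6.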

Additional observations from a re-analysis of the deposited data

How the results depend on the processing

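At an adjusted p under 0.05 from limma, the count of members was 0 under all 18 alternatives, with a smallest adjusted p of 0.317. Over all probe sets the count of 0 became 3 where a signal of 100 was asked in all 6 arrays and 1 with a mean-variance trend, and 0 to 1 with 1 array left out. The count of members at an unadjusted p under 0.05 went from 0 to 1 with a mean-variance trend, median centring, cyclic loess, single-gene probe sets only or a signal of 100 in all 6 or in at least 3 arrays (Ddx58 each time), to 2 with array weights (Ddx58 and Irf7) and to 0 to 5 with 1 array left out. It was 7 without CT replicate 3 and LERKO replicate 2 together, where 17 members did not overlap between groups (63.0%, beside 44.1% of all probe sets) and the median was −0.23. With 1 array left out, 2 to 12 members did not overlap (19.7% to 29.2% of all probe sets), 14 to 24 were lower in LERKO liver (48.3% to 57.5% of all probe sets) and the median ranged from −0.19 to −0.014. The highest counts and the median of −0.19 came without CT replicate 3. The count of 14 lower members and the median of −0.014 came without CT replicate 1. The count of 2 members without overlap came without CT replicate 1, without LERKO replicate 1 and without LERKO replicate 3. The cause was not tested. The count of members lower in LERKO liver was chosen after seeing the data.

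Of 477 member values under the alternatives, 456 kept their direction and 21, in 11 members, had the opposite sign. With 1 array left out, the ranges of these members were −0.36 to 0.081 for Irf1, −0.16 to 0.0017 for Irf2, −0.063 to 0.14 for Stat2, −0.11 to 0.088 for Ifit3, −0.064 to 0.053 for Rsad2, −0.11 to 0.0077 for Ifi35, −0.086 to 0.017 for Ifih1, −0.26 to 0.22 for Irgm1, −0.52 to 0.11 for Tap1, −0.15 to 0.057 for Tap2 and −0.33 to 0.018 for Cxcl10. With array weights Ifit3 had −0.0021 and Rsad2 0.0074, and Ifit3 had −0.17 without CT replicate 3 and LERKO replicate 2 together.

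The replicate number as a block left the count of members at 0 and that of all probe sets at 0, with a median of −0.10. The deviations of same-numbered arrays correlated at −0.157, −0.0731 and −0.137, and 0 of 6 arrays correlated best with their own number. These values gave no sign that the numbers pair the mice. They cannot exclude a pairing, because the groups are small and some arrays hold transcripts of other organs.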

Other observations

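Several further cell types were read from marker genes. Of 7 neutrophil markers measured, none reached a signal of 100 in any array, nor did any of 6 markers of dendritic cells, which lay between 3.37 and 6.53. Among 5 markers of B and plasma cells only Cd79b reached a signal of 100, in LERKO replicate 1 at 6.78. Of 4 markers of plasmacytoid dendritic cells Tcf4, which other cells also express, reached it, at 8.01 to 8.13. Markers of sinusoidal endothelial cells had log2 fold changes from −0.52 to 0.072 (6 tested), and those of stellate cells from 0.028 to 0.21 (4 tested). The other 2 stellate markers measured, Col1a1 and Col3a1, lay below a signal of 100 in all arrays. In both genes each LERKO mouse had a lower signal than every CT mouse. Below a signal of 100 this also held for the T and NK cell markers Cd4 and Gzmb. The reverse held for the interferon gene Ifnk and the plasmacytoid dendritic cell marker Pacsin1. No share over all probe sets below this signal was computed, so the weight of these cases was not tested. Sox9, the only tested marker of cholangiocytes, had a log2 fold change of −0.41 and was kept only through CT arrays. The groups did not overlap in Sox9, as in 13.0% of all probe sets tested. Of 5 muscle genes measured, 3 were tested, with log2 fold changes from −0.55 to −0.34. These 3 were kept only through CT replicate 3. Ckm was at 8.33 in CT replicate 3, 6.12 in LERKO replicate 2 and at most 4.75 in the other mice. Lyve1, an endothelial marker, was at 6.30 in LERKO replicate 1 and at 7.09 or more in the other mice.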
